A study of Arabidopsis thaliana with 12 samples.

Results

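Photosystem II, the thylakoid complex that oxidizes water, is described here by 5 nuclear genes, chosen by name among those to which the platform annotation gives a feature of their own. They are the small subunit genes PSBW (AT2G30570) and PSBY (AT1G67740), the assembly genes PSB27 (AT1G03600) and LPA19 (AT1G05385), and the antenna gene LHB1B2 (AT2G34420). They are 5 of 3438 genes or features tested, of which 691 were named for a single gene. Total RNA was compared between 6 samples of the pam46 mutant of Arabidopsis thaliana and 6 wild-type (WT) samples, all of ecotype Columbia 0. The labels describe pam46 by an alteration of photosynthesis and a defect in a protein not yet identified. They give no treatment, and no source used here gives the mutated gene, the kind of allele, the number of lines, the tissue or the age of the plants. Nothing states that samples of a group came from separate plants, so the p-values cover sample-to-sample spread that could be purely technical.

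In the thylakoid membrane the reaction centre of photosystem II is built stepwise, from early modules to a dimer that binds the trimeric light-harvesting complex. Its D1 protein is damaged by light and replaced, so assembly factors act throughout the life of the leaf. Subunits encoded in the nucleus are made in the cytosol and imported, while the reaction centre proteins are encoded in the plastid. In RNA from whole samples, fewer cells that express a gene and less of its RNA per cell cannot be told apart.

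Across all features the median deposited intensity was 0.199 to 0.226 in pam46 samples and 0.296 to 0.341 in WT samples, on a linear scale that ends at 100. Summed intensities were close, 3297 to 3561 in pam46 and 3290 to 3644 in WT. A typical feature was therefore dimmer in pam46, by a median of 0.36 on the log2 scale as deposited, and the direction of a small difference depends on how samples are scaled. Differences below are pam46 minus WT on the log2 scale after quantile normalization, with standard errors (SE) and p-values from limma. These were adjusted by Benjamini-Hochberg over the 3438 tests, and the threshold for a call was an adjusted p under 0.05. Over all features, samples numbered 1 and 2, 3 and 4, and 5 and 6 deviated together within each group. Results with these consecutive numbers averaged, 3 values against 3, are therefore given beside the others.

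Of the 5 genes, 1 rose, 2 fell and 2 did not pass. By the same rule 41.1% of all features were called, 19.5% as higher and 21.6% as lower in pam46, so this count does not set the 5 genes apart. The PSBW transcript rose 1.61-fold, and the LPA19 and LHB1B2 transcripts fell, to 0.732 and 0.611 times their WT levels. PSBY and PSB27 stood at 0.769 and 2.42 times WT without passing the test. The median of the 5 differences was -0.38 on the log2 scale and that of all features 0. This 0 follows from quantile normalization. As deposited, the middle one of the 5 differences was that of PSBY at -0.34, and the median of all features was -0.36. With consecutive numbers averaged PSBW alone was called, where 17.1% of all features were.

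**Figure D1:**
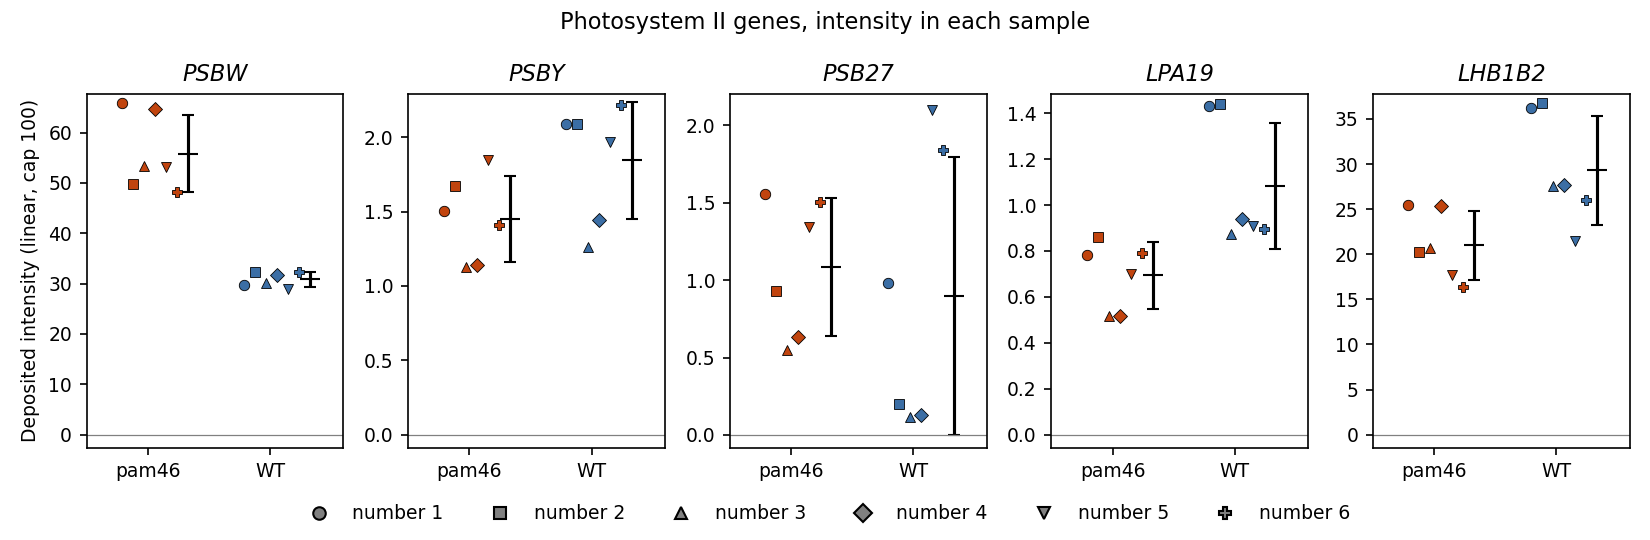
Deposited intensity (linear, cap of 100) of each gene in 6 pam46 samples, left, and 6 WT samples, right, with the group mean and SD beside the points. The marker shows the sample number. PSBW lies at 48.1 or above in pam46 and at 32.4 or below in WT, while WT values of PSB27 run from 0.115 to 2.10.

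PSBW encodes a small membrane-spanning subunit that helps to hold the dimer and its antenna together. Its lowest, median and highest deposited intensities were 48.1, 53.2 and 65.9 in pam46 samples, against 28.9, 30.9 and 32.4 in WT samples. All pam46 samples were brighter than all WT samples, which held in this direction for 5.38% of all features. The mean was 55.8 ± 7.60 in pam46 and 30.9 ± 1.47 in WT (SD, n = 6 each), a coefficient of variation of 13.6% in pam46 and 4.76% in WT. PSBW was among the brightest features on the array, ranking from the 6th to the 12th place from the top in pam46 samples and from the 12th to the 16th in WT samples. The ranks met at the 12th place, held by pam46 sample 6 and WT sample 3, so on the normalized scale the groups touched.

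After normalization PSBW was higher by 0.69 ± 0.16 (SE, 95% interval 0.33 to 1.05, limma adjusted p = 0.00567). It was higher in pam46 for all 6 sample numbers, as were 22.0% of all features, with differences from 0.07 at number 6 to 1.26 at number 1. With consecutive numbers averaged the difference was called as well (limma adjusted p = 0.0450), in a direction called for 8.00% of all features. PSBW was called in 24 of 28 alternative settings and kept its sign in all 28, from 0.38 to 1.35. The call ended with averaging and the replicate number as a block together (limma adjusted p = 0.0605), with a random block for consecutive numbers (0.0967) and with numbers 3 and 4 left out (0.0542). It also ended after subtraction of the features 1, 6 and 12 feature numbers away (0.38, limma adjusted p = 0.228), but not after subtraction of the 20 nearest features (1.08, limma adjusted p = 0.00214). Whether signal from adjacent features entered the PSBW value was not tested.

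PSBY encodes small membrane peptides that sit beside cytochrome b559 at the edge of the complex. Its deposited intensity had a lowest, median and highest value of 1.13, 1.46 and 1.85 in pam46 samples, against 1.26, 2.03 and 2.22 in WT samples. The groups overlapped, although pam46 was below WT at all 6 sample numbers, as were 38.4% of all features on the deposited scale and 21.9% after normalization. The normalized difference was -0.38 ± 0.15 (SE, 95% interval -0.72 to -0.04, limma adjusted p = 0.0714, and 0.287 with averaging). In both groups samples 3 and 4 were the lowest. With the replicate number as a block, which removes such shared levels, PSBY passed as lower (limma adjusted p = 0.0159), but averaging and the block together did not pass (0.0984). On the deposited scale its difference of -0.34 was close to the median of all features, -0.36, and with equal medians the sign turned (0.16, limma adjusted p = 0.425). After subtraction of the features 1, 6 and 12 numbers away it passed in the other direction (0.80, limma adjusted p = 0.0173). The direction of PSBY was thus not settled across scalings.

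PSB27 encodes a lumenal protein that binds assembly intermediates during the building and repair of the complex. Its deposited intensity was 0.548, 1.13 and 1.56 at the lowest, median and highest pam46 sample, against 0.115, 0.591 and 2.10 in WT samples. WT samples 2, 3 and 4 stood at 0.20 or below, WT sample 1 at 0.983 and WT samples 5 and 6 at 2.10 and 1.84. The pam46 values lay inside the WT range in all 6 samples. Samples 3 and 4 were the lowest in both groups, at 0.548 and 0.632 in pam46 and at 0.115 and 0.129 in WT.

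The PSB27 difference was 1.28 ± 0.83 (SE, 95% interval -0.54 to 3.09, limma adjusted p = 0.245, and 0.484 with averaging). Its error was the largest of the 5 genes. The mean difference between samples of the same number was 1.59 for numbers 1 and 2, 2.76 for numbers 3 and 4 and -0.52 for numbers 5 and 6. The sign in numbers 5 and 6 thus opposed that in the other 4 numbers, and whether the difference depends on the number was not tested. Without numbers 5 and 6 it was 2.28 (limma adjusted p = 0.0598), and without numbers 3 and 4 it was 0.54 (0.634). PSB27 did not pass in any of 28 alternative settings, and its sign stayed positive in all of them.

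LPA19 encodes a protein related to PSB27 that is needed for efficient maturation of the D1 carboxyl end. Its deposited intensity was 0.517, 0.740 and 0.859 at the lowest, median and highest pam46 sample, against 0.873, 0.924 and 1.44 in WT samples. All pam46 samples lay below all WT samples on that scale, as did 23.6% of all features. After normalization the groups overlapped, with pam46 at -0.74 to -0.18 and WT at -0.25 to 0.44 on the log2 scale. WT samples 1 and 2 were the highest, at 1.43 and 1.44, and the other 4 WT samples lay between 0.873 and 0.941.

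LPA19 fell by 0.45 ± 0.16 on the log2 scale (SE, 95% interval -0.81 to -0.09, limma adjusted p = 0.0461), and was not called with averaging (0.260), where 9.08% of all features were called as lower. The mean difference was -0.69 for numbers 1 and 2, -0.57 for numbers 3 and 4 and -0.08 for numbers 5 and 6, and at number 6 it was 0.01. LPA19 was lower in all 28 alternative settings but called in 10. Its call ended in 7 of 12 fits that left out 1 sample, namely WT samples 1, 2 and 4 and pam46 samples 1, 3, 4 and 5 (limma adjusted p from 0.0553 to 0.0954). With equal medians it stood at -0.13 (limma adjusted p = 0.606). The fall of LPA19 was therefore close to the threshold.

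**Figure D2:**
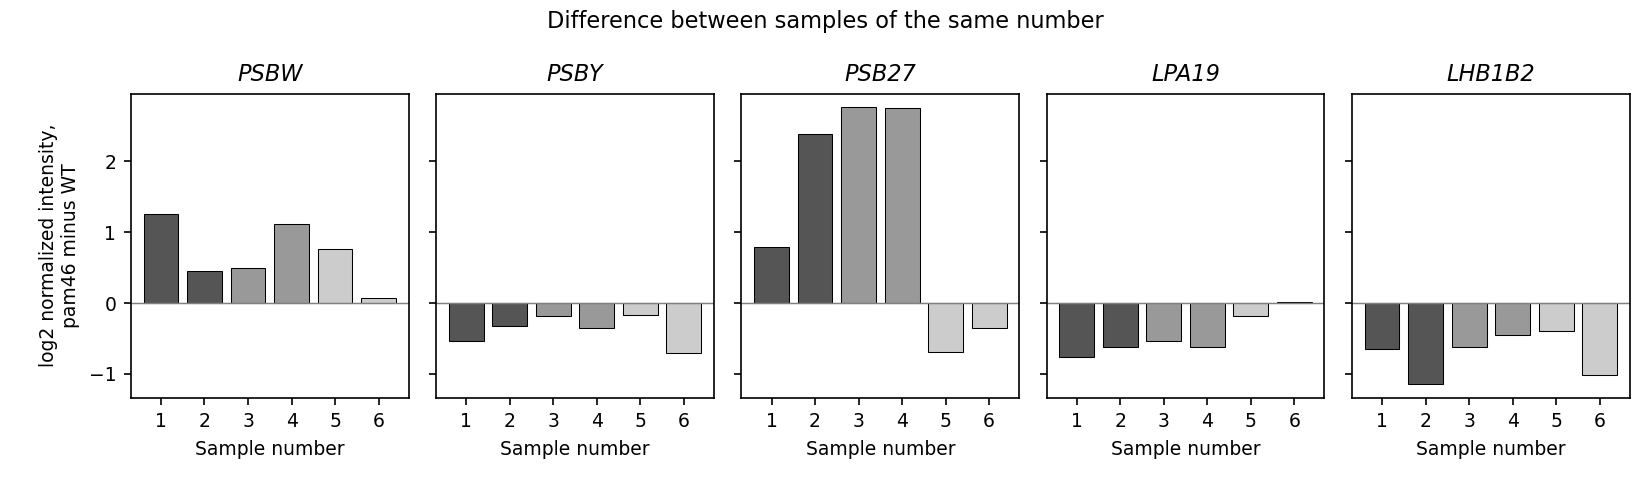
Log2 normalized intensity of pam46 minus that of the WT sample with the same number, for numbers 1 to 6 on the x axis. Bars of one shade are consecutive numbers, whose samples deviated together over all features. This need not hold for a single gene: PSBW was at 0.76 at number 5 and 0.07 at number 6. PSBW is above 0 and PSBY and LHB1B2 are below 0 at all 6 numbers, and PSB27 runs from -0.69 to 2.76.

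LHB1B2 encodes an LHCB1 protein of the trimeric antenna that feeds light energy to photosystem II. Near-identical LHCB1 copies exist in the genome, and a feature can bind their transcripts too, so its values may belong to several genes. Its deposited intensity was 16.4, 20.5 and 25.4 at the lowest, median and highest pam46 sample, against 21.5, 27.6 and 36.8 in WT samples. The groups overlapped, through WT sample 5 at 21.5 and pam46 samples 1 and 4 at 25.4 and 25.3. By rank LHB1B2 held the 22nd to the 36th place from the top in pam46 samples and the 12th to the 24th in WT samples. Pam46 lay below WT at all 6 sample numbers, with deposited ratios of pam46 to WT from 0.551 at number 2 to 0.915 at number 4. The same held for 38.4% of all features on the deposited scale and 21.9% after normalization.

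LHB1B2 fell by 0.71 ± 0.15 on the log2 scale (SE, 95% interval -1.05 to -0.37, limma adjusted p = 0.00325). The 3 sets of consecutive numbers gave -0.90, -0.53 and -0.70, and with averaging the adjusted p of limma was 0.0702. LHB1B2 was called in 26 of 28 alternative settings, in each case as lower, among them all 12 that left out 1 sample, the random block (limma adjusted p = 0.0298) and averaging with the block (0.0474). Most of the 28 settings kept the quantile normalization, so they are not separate checks on the scaling. As deposited the LHB1B2 difference was -0.48 (limma adjusted p = 0.0269), where the median of all features was -0.36. With equal medians it stood at 0.03 (limma adjusted p = 0.940). Its fall, like the sign of PSBY, thus depended on the scaling.

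**Figure D3:**
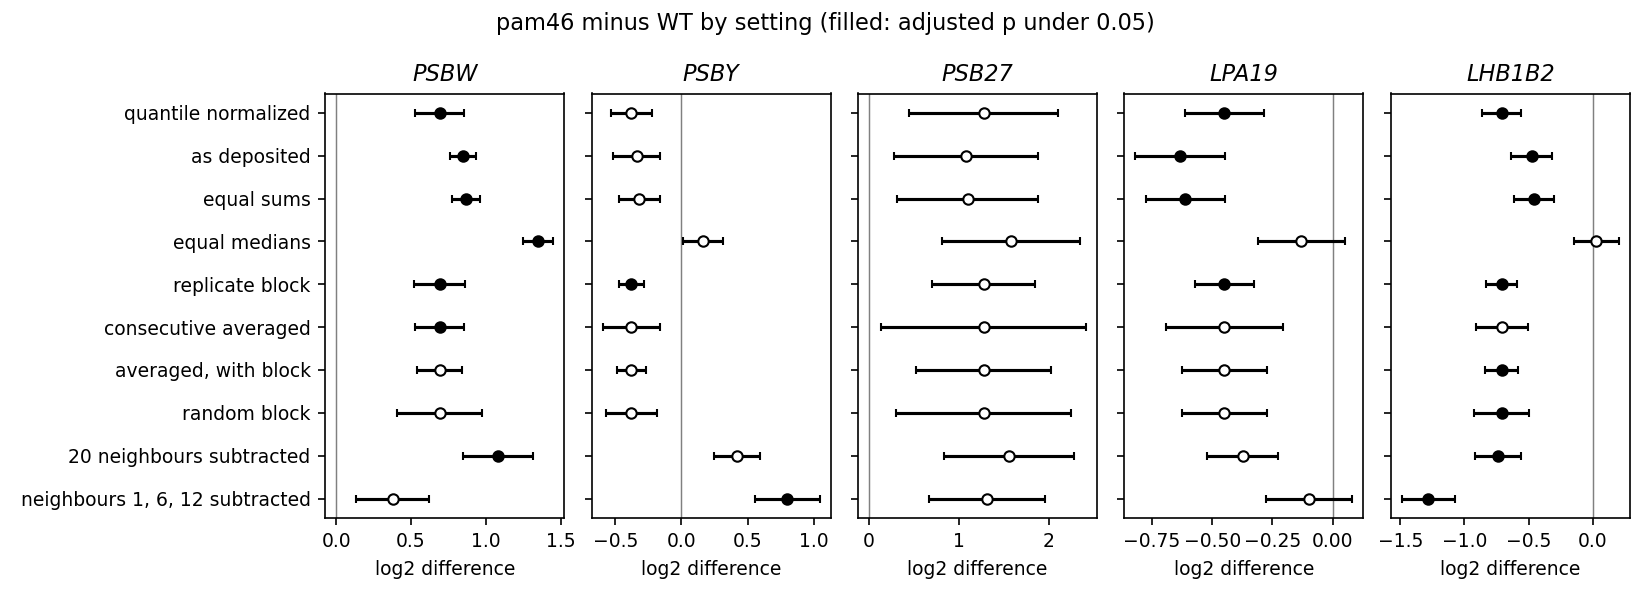
Log2 difference of pam46 minus WT with its SE, on the x axis, for each gene under the quantile-normalized fit and 9 alternatives. Filled points had a limma adjusted p under 0.05. PSBW stays above 0 in all 10 and LPA19 below 0, while PSBY and LHB1B2 reach or cross 0 with equal medians.

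A ratio of 2 genes within a sample cancels any scaling of that sample as a whole, and shows whether the genes changed unequally, though not which of them changed. All 10 pairs of the 5 genes were compared on deposited intensities with an exact two-sided permutation test over the 12 samples, adjusted over the 10 pairs. PSBW relative to LHB1B2 was 2.50-fold higher in pam46 (log2 1.32 ± 0.12 SE, n = 6 per group, adjusted p = 0.00722 by the exact test). PSBW relative to PSBY was 2.27-fold higher (1.19 ± 0.21) and PSBW relative to LPA19 was 2.79-fold higher (1.48 ± 0.23), each with the same adjusted p by the exact test. In these 3 pairs the ratio was higher in pam46 at all 6 sample numbers and the groups did not overlap, which gives the smallest p the test allows, 0.00216. All 3 pairs share PSBW, whose deposited values alone separated the groups, so they are not 3 independent results. LPA19 values separated the groups in the other direction, so the separation of PSBW over LPA19 followed from the single genes. As deposited, PSBW was higher and PSBY, LPA19 and LHB1B2 were lower in pam46 at all 6 sample numbers. The agreement of the 3 ratios over the 6 numbers therefore followed from the single genes too. The share of other feature pairs that separate the groups in this way was not computed. The unequal change of PSBW against PSBY, LPA19 and LHB1B2 thus did not depend on a single scaling factor for each sample. A difference between samples that varies with intensity does not cancel in a ratio. Whether such a difference entered these ratios was not tested.

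The permutation test takes the samples as independent, which consecutive numbers were not. With consecutive numbers averaged, these 3 ratios had an exact p of 0.10 before adjustment, the smallest that 3 against 3 allows. An exact sign-flip test over the 6 sample numbers gave 0.0312 for each, the smallest possible, and 0.104 after adjustment over the 10 pairs. This smallest p follows wherever all 6 differences share a sign, so here it too followed from the single genes. The ratios among PSBY, LPA19 and LHB1B2 did not pass: PSBY over LPA19 was at 0.29 ± 0.16, PSBY over LHB1B2 at 0.14 ± 0.25 and LPA19 over LHB1B2 at -0.16 ± 0.21 (log2, SE, n = 6 per group, exact permutation test, adjusted p = 0.186, 0.671 and 0.582). These errors do not exclude small unequal changes, and without WT sample 6 PSBY over LPA19 passed (0.40, exact permutation test, adjusted p = 0.0433). The 4 ratios with PSB27 did not pass either, with SEs of 0.72 to 0.90 on the log2 scale.

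**Figure D4:**
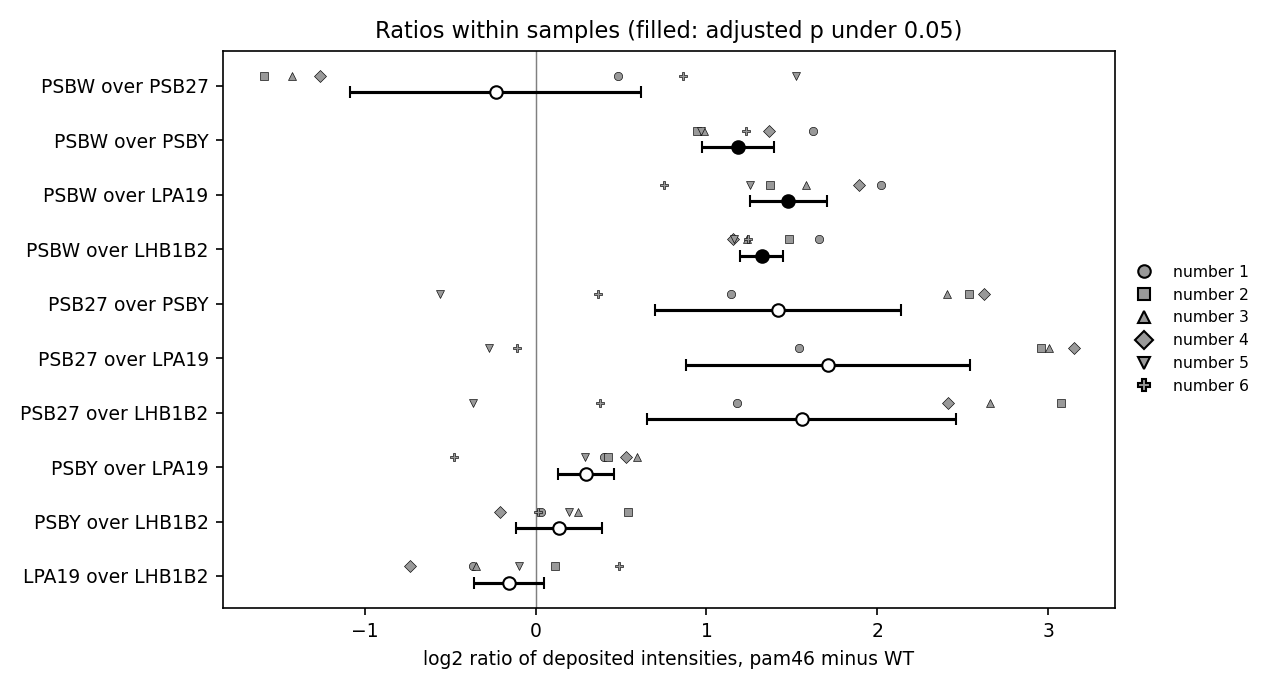
Change in the ratio of 2 genes within a sample, as the log2 ratio of deposited intensities, pam46 minus WT, on the x axis. Large points are group differences with their SE, filled where the adjusted p of the exact permutation test was under 0.05, and small markers are the differences at each sample number. The ratios of PSBW to PSBY, LPA19 and LHB1B2 lie at 1.19 to 1.48, and the ratios among those 3 genes lie between -0.16 and 0.29.

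Of 63 nuclear genes listed for subunits, assembly and repair, and the antenna of photosystem II, 6 had a feature of their own, the 5 genes above and AT1G54500. Another 7 were named only on features that the annotation assigns to several genes, and were not used here. AT1G54500 encodes a rubredoxin-like thylakoid protein needed for photosystem II accumulation. Its deposited intensity was 1.07, 1.27 and 1.45 at the lowest, median and highest pam46 sample, against 1.18, 1.26 and 1.34 in WT samples. All WT values lay within the pam46 range. The difference was 0.02 ± 0.08 on the log2 scale (SE, 95% interval -0.15 to 0.19, limma adjusted p = 0.881), and 0.51 with equal medians, where it passed (limma adjusted p = 0.000749). Of the 6 genes 1 rose, 2 fell and 3 did not pass. Over all features 41.1% were called, 19.5% as higher and 21.6% as lower, so this count does not set the 6 genes apart. Their median difference was -0.18, against 0 for all features, a value that follows from quantile normalization.

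Genes with the most similar pattern were sought among 510 other features of a single gene that were above the floor in all 12 samples, by the root mean square difference of log2 normalized values over the 12 samples after centring each gene on its mean. The 12 values share their samples and their scaling, and no test was made. PSBW was nearest to AT5G56850 (0.222), AT1G24310 (0.256) and AT1G74730 (0.262). LPA19 was nearest to AT4G20690 (0.147), NTRC (0.160), the plastid NADPH-dependent thioredoxin reductase gene, and UBA1A (0.162). LHB1B2 was nearest to AT2G03390 (0.172), AT4G00590 (0.211) and GLDH (0.230), and PSBY to AT1G21660 (0.165), AT4G24750 (0.193) and AT1G21730 (0.20). PSB27 was nearest to AT1G49850 (0.815), AT2G38550 (0.833) and AT4G17070 (0.953). These distances were the largest, but the measure is not scaled to a gene's own spread. In WT samples the SD of log2 normalized values was 2.08 for PSB27, against 0.12 to 0.33 for PSBW, PSBY, LPA19 and LHB1B2. Whether PSB27 lay further from other genes than its own spread accounts for was not tested.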

How the data were processed

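The deposited values are linear spot intensities from 0 to a cap of 100, measured on total RNA per the labels. No source used here gives the authors' background correction or normalization. The platform annotation held by GEO (possibly outdated) named 1 gene for 692 of 3439 features, and 690 of these matched RefSeq's TAIR10.1 table by gene ID, used for names only. Where a gene had several features the brightest was kept. Values were quantile normalized, set to a floor at the 5th percentile of positive values (0.0278) and put on the log2 scale, then compared with limma 3.58.1 (R 4.3.3, two-sided) over 3438 genes or features. Ratios used scipy 1.17.1. Fits were tested on simulated data with noise independent between samples, which does not show their error rate where consecutive numbers deviate together. The number of arrays limits the precision, and arrays give no read depth.

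Members, gene lists, processing and alternatives were chosen with earlier results of these data known. Named genes were the 5 members, the other list gene with an unshared feature and, for each member, the 3 genes with the nearest pattern. Deviations from group means correlated between same-numbered samples of pam46 and WT at r = 0.24 to 0.57, above 0.1 in all 6 pairs, so the labels' numbers were taken to pair samples. Differently numbered samples of pam46 and WT were not compared, so the correlation is not shown to be particular to equal numbers. The main fit and the permutation test left the pairing out, and the replicate block and the sign-flip test used it as alternatives. Within consecutive numbers r was 0.26 to 0.47 in pam46 and 0.62 to 0.67 in WT.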

Additional observations from a re-analysis of the deposited data

How the results depend on the processing

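Of 3438 features 1413 were called, 669 higher and 744 lower, and this split moved with scaling. Without any scaling 373 were higher and 1301 lower, after scaling to equal sums 382 were higher and 1274 lower, and after scaling to equal medians 843 were higher and 695 lower. The count was 587 with consecutive numbers averaged, 693 with averaging and the replicate block, and 922 with the random block, where the first pair have fewer samples. With 1 sample left out it was 1315 to 1389.

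PSBW stood at 0.69 with averaging and the block and with the random block, at 0.62 without numbers 3 and 4, and at 0.38 after subtraction of the features 1, 6 and 12 numbers away, an alternative chosen after seeing the data, each without a call. With 1 sample left out it was 0.60 to 0.81. PSBY passed as lower with the replicate block (-0.38), array weights (-0.42) and without numbers 3 and 4 (-0.43). It turned to 0.16 with equal medians, 0.42 after subtraction of the 20 nearest features and 0.80 after subtraction of those 1, 6 and 12 numbers away. With 1 sample left out it was -0.47 to -0.32, passing without WT sample 3 (limma adjusted p = 0.0223) or pam46 sample 5 (0.0419).

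PSB27 was 0.85 to 1.78 with 1 sample left out. LPA19 was not called with equal medians (-0.13), the floor at the 1st percentile, averaging, averaging with the block or the random block (-0.45 in each), array weights (-0.39), subtraction of the 20 nearest features (-0.37) or of those 1, 6 and 12 numbers away (-0.10), or without numbers 1 and 2 (-0.32), 3 and 4 (-0.38) or 5 and 6 (-0.64). With 1 sample left out it was -0.51 to -0.37. LHB1B2 was at -0.71 with averaging, without a call, and at 0.027 with equal medians. With 1 sample left out it was -0.82 to -0.63. AT1G54500 was -0.014 (without pam46 sample 5) to 0.056 with 1 sample left out, -0.0067 without numbers 1 and 2 and -0.072 without numbers 5 and 6.

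Of the 10 ratios 3 passed, and 0 passed with the sign-flip test that uses the replicate block or with averaging, where 3 were at the smallest exact p possible. With 1 sample left out 3 or 4 passed, the added one being PSBY over LPA19 without WT sample 6 (0.40). The ratio of PSBW to PSB27, at -0.23, turned to 0.03, 0.17 and 0.15 without WT samples 2, 3 and 4, and ran from -0.68 to 0.17 with 1 sample left out. The replicate block changed the call of PSBY alone among the 5 genes. The cause of these changes was not tested.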
